A study of Mus musculus with 10 samples.

Results

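Of the 23473 probes on the mouse chip, 96 (0.409%) were bright in heart and stayed near the fibroblast level in induced cardiomyocyte-like cells (iCM). They were chosen from the authors' value table after empty values and values under 25 were set to 25. A chosen probe read at least 8 times as high in heart as in mouse embryonic fibroblasts (MEF). On each of the 6 first-round iCM arrays it also lay between 0.5 and 2 times its MEF value, limits excluded. At least 8-fold in heart over MEF was met by 230 probes, 0.98% of the chip, and the 96 made up 41.7% of those. Another 67 of the 230 stood at least 2-fold above MEF on all 6 arrays and are called switched on here, and the other 67 were mixed. These values chose the probes, so the levels of MEF, heart and first-round iCM relative to each other are a description with no test. Fits among the 6 first-round arrays are given further on with what the rule fixes in them.

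The series set iCM, cells of direct cardiac reprogramming, beside mouse heart as the positive and MEF as the negative control, with 1 array per sample and 10 arrays in all. The first-round iCM were MEF given GMT (the transcription factors Gata4, Mef2c and Tbx5) with miR-133, or GMT alone, and were sampled at day 3, 7 or 18. A later round, also at day 7, comprised 1 array of cells that received Snai1 on top of GMT/miR-133 (the Snai1 array) and a repeat of GMT/miR-133 (the second day 7 array). Per the labels, the factors were delivered by pMx retrovirus, miR-133 was a synthetic mimic of miR-133a transfected with a Lipofectamine reagent, and the MEF array came from untreated cells. All 8 iCM samples had been sorted for GFP driven by the α-MHC promoter, so each had passed a gate on 1 cardiac reporter. For the second day 7 array the labels differ among themselves: 2 fields name miR-133, and the description names only GMT. The labels used here give no strain, no age of the heart donor and no number of animals.

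GMT reprogramming turns fibroblasts toward a cardiac-like state without a return to pluripotency. Gata4, Mef2c and Tbx5 act together on cardiac gene enhancers, and miR-133a is a muscle microRNA that represses Snai1, a transcription factor of the mesenchymal programme. Heart tissue holds cardiomyocytes together with fibroblasts, endothelial cells, smooth muscle and blood cells, so a heart-high transcript need not be a cardiomyocyte one. The deposited files do not pair probes with genes or give probe sequences. Probes are therefore named by ID, and the tissue labels could not be checked against marker genes.

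Between 10141 and 10840 probes per array read above 25 in the table, and 1791 to 3189 were empty. The value of 25 lies near the median of every array and equals a scanner intensity of 43.6 to 92.0. It is well above the spots that carry no probe, whose 95th percentile lay at 2.42 to 4.56 on the table's scale. The file headers show 3 scan sessions, and the later 2 arrays share one of their own. Between the table and the scanner files days 3 and 7 are exchanged in both arms. Table values below carry the table's days, and a 1-array value has no replicate check.

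Heart values of the 96 probes reached from 204 to 55608, with a median of 454. In heart, 38 probes read under 400, 29 from 400 to 1000, 24 from 1000 to 10000 and 5 over 10000. The ratio of heart to MEF was 8.11 to 2224, with a median of 15.0, and it is a lower bound for the 72 probes that were at 25 in MEF. Heart medians were 1018 for the switched-on probes and 873 for the mixed ones. The upper quartile of all probes in heart was 82.3. The lower end of the set is fixed by the rule, since a heart value cannot be below 8 times the floor. In bulk RNA, fewer cells with a transcript and less of it per cell cannot be told apart.

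The 5 brightest heart probes read at most 81.9 on the arrays other than heart. M400010807 read 25, 25 and 25 on the GMT/miR-133 arrays of days 3, 7 and 18, 25, 34.3 and 25 on the GMT arrays, 25 on the Snai1 array and 25 on the second day 7 array, against 55608 in heart and 25 in MEF. Its heart spot was saturated, so at least 2224-fold is the bound for heart over MEF. M200000622 read 25 on all 8 iCM arrays, 36273 in heart and 25 in MEF, at least 1451-fold. M400000660, at 28246 in heart, and M400011276, at 24983, were named after their values were seen, and both were also at 25 on MEF and on all 8 iCM arrays. In these probes the heart array alone stood apart.

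M300003688 was the exception among the 5, because it was measured above 25 on every array. It read 56.8, 72.9 and 76.9 on the GMT/miR-133 arrays of days 3, 7 and 18, 80.1, 81.9 and 72.4 on the GMT arrays, 59.9 on the Snai1 array and 55.1 on the second day 7 array, against 45351 in heart and 57.5 in MEF. The iCM arrays lay on both sides of MEF, and the highest reached 0.180% of heart. Heart was 789-fold above MEF, here with a measured denominator.

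At the dim end, M300011409 read 25 on all 8 iCM arrays, 206 in heart and 25 in MEF. M200001838 read 25, 28.5 and 40.7 on the GMT/miR-133 arrays of days 3, 7 and 18, 25, 25 and 32.8 on the GMT arrays, 25 on the Snai1 array and 43.2 on the second day 7 array, against 204 in heart and 25 in MEF. Both lie just above the lowest heart value that 8 times the floor allows.

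The word silent fits most of the set only in the sense of not being read above 25, a level well above spots that carry no probe. By scanner intensity, 70 of the 96 exceeded the blank-spot limit of detection on all 6 first-round arrays. On none of these arrays did 4 of the 96 exceed it. In MEF 82 of the 96 did, against 20583 of all 23473 probes. The limit is a low one, since on the MEF array it was 17, equal to the median of spots that carry no probe. Passing it is therefore weak evidence of signal, and nothing particular to the set is read from these counts. On MEF and all 6 first-round arrays, 59 probes were at 25, and 50 were at 25 on all 9 arrays other than heart. The other extreme was a group of 18 probes above 25 on all 9 of those arrays, which had a measured level in fibroblasts. Of the 24 probes above 25 in MEF, the MEF values ran from 25.4 to 389 and the heart to MEF ratio had a median of 11.3. Being left near the MEF level holds for all 96 only with values under 25 set to 25, as the rule has it. In the values as given, 8 of them stood at least 2-fold above MEF on all 6 first-round arrays and 1 stood below, and these are described further on.

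M200003096 was the brightest of the 24 in MEF. It read 640, 446 and 641 on the GMT/miR-133 arrays of days 3, 7 and 18, 387, 376 and 562 on the GMT arrays, 416 on the Snai1 array and 788 on the second day 7 array, against 3215 in heart and 389 in MEF. The GMT/miR-133 value was above the GMT value at each day, and heart exceeded every iCM array.

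M300005378 and M400003555 had the lowest iCM to MEF ratios within the limits, 0.558 and 0.608. M300005378 read 100, 110 and 87.9 on the GMT/miR-133 arrays of days 3, 7 and 18, 94.2, 149 and 94.0 on the GMT arrays, 97.2 on the Snai1 array and 51.8 on the second day 7 array, against 1508 in heart and 158 in MEF. All 8 iCM arrays were below MEF. M400003555 read 101, 66.7 and 55.8 on the GMT/miR-133 arrays of days 3, 7 and 18, 103, 99.3 and 52.7 on the GMT arrays, 94.7 on the Snai1 array and 76.9 on the second day 7 array, against 1416 in heart and 86.6 in MEF. Its iCM arrays lay on both sides of MEF, with both day 18 arrays the lowest.

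The largest value of the 8 iCM arrays was 7.83% of heart in the median probe and 28.5% in the highest. It was under 5% for 28 probes and under 12.5% for 82. These shares count a probe at the floor as 25, so they are upper bounds for probes not read above it. Above 25 stood 31, 32 and 31 of the 96 on the GMT/miR-133 arrays of days 3, 7 and 18 and 26, 27 and 28 on the GMT arrays, with 31 on the Snai1 array, 38 on the second day 7 array and 24 in MEF.

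Ratios to MEF on the first-round arrays were held within 2-fold by the rule, so their small spread is built in. Of the 96 probes, 72 were at 25 in MEF and could not read below it on any array. The counts above and below MEF are therefore a description, with no chip share beside them. Above MEF were 26, 25 and 25 of the 96 on the GMT/miR-133 arrays of days 3, 7 and 18, and 20, 22 and 19 on the GMT arrays. Below MEF were 6, 9 and 7 on the GMT/miR-133 arrays and 9, 8 and 11 on the GMT arrays, and the remaining probes were at 25 on both sides. On the later arrays 25 were above and 8 below MEF with Snai1, and 28 above and 13 below on the second day 7 array.

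The limits of the rule split close values. The highest iCM to MEF ratio inside was 1.94 for M200002625 and 1.92 for M300011435, and the nearest outside were 2.11 for M200005344 and 2.13 for M200013692. The nearest probes outside the lower limit were M400000110 at 0.483 and M200006659 at 0.407. For heart over MEF, M200009663 at 8.11 and M200001838 at 8.15 were inside, and M300002692 at 7.97 and M200003144 at 7.91 were outside.

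The later 2 arrays took no part in choosing the probes, although their ratios use the same MEF array. On the Snai1 array 91 of 96 probes (94.8%) were within 2-fold of MEF, against 91.8% of all probes. On the second day 7 array 87 of 96 (90.6%) were, against 87.7% of all probes, and on both arrays together 85 (88.5%), against 86.2%. These shares are near those of the chip. The switched-on probes differed, with 11 of 67 within 2-fold on the Snai1 array and 0 on the second day 7 array. Those 67 had been picked for standing at least 2-fold above this same MEF array in the first round, so nothing is read from the difference. Their median ratio to MEF was 7.51 on the Snai1 array and 16.5 on the second day 7 array, whereas it was 1 on both for the 96. Neither array has a replicate, so none of these shares was tested.

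At least 2-fold above MEF were 4 of 96 probes (4.17%) on the Snai1 array, against 3.34% of all probes, and among them M300004973 at 2.19-fold was below 2-fold on the second day 7 array. On the second day 7 array 8 of 96 (8.33%) were, against 7.17% of all probes. On both arrays 3 probes (3.13%) were above it by this much, against 2.83% of all probes, and those 3 are named here. M200003666 read 62.1 on the Snai1 array and 62.3 on the second day 7 array, against 246 in heart and 27.5 in MEF. Its first-round values were 41.8, 47.4 and 47.1 with GMT/miR-133 at days 3, 7 and 18 and 36.7, 42.2 and 40.8 with GMT alone. All 8 iCM arrays were above MEF and below heart.

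M200002625 read 51.7 on the Snai1 array and 60.6 on the second day 7 array, against 212 in heart and 25 in MEF. In the first round it was above the floor with miR-133 at every day, at 31.3, 48.6 and 33.6, and at 25 on all 3 GMT arrays. M300011435 read 51.4 on the Snai1 array and 50.5 on the second day 7 array, against 953 in heart and 25 in MEF. Its first-round values were 42.1, 36.2 and 34.1 with GMT/miR-133 and 38.9, 48.1 and 30.4 with GMT alone, so the arms overlapped.

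The Snai1 array was set against the second day 7 array of its own scan session, 1 array a side and with no test. With Snai1, 0 of the 96 were higher by 2-fold or more, against 0.89% of all probes, and 3 (3.13%) were lower by 2-fold or more, against 3.12%. By comparison, 41 of 67 switched-on probes (61.2%) and 35 of 67 mixed probes (52.2%) were at least 2-fold lower. Probes at the floor on both arrays cannot show such a fall. These larger shares depended on the control. Against the table's first day 7 GMT/miR-133 column, 30 of 67 switched-on probes were at least 2-fold lower and 2 higher. Of the mixed probes 18 were lower and 4 higher. Against the GMT/miR-133 column that matches the day 7 scanner file, 22 switched-on probes were lower and 7 higher. There 9 mixed probes were lower and 10 higher. Both columns belong to the first round, where switched-on probes were picked for standing at least 2-fold above MEF. The Snai1 array took no part in that choice, so a fall of switched-on probes against these columns is partly built in. Nothing about Snai1 is read from it. Against the table's first day 7 GMT/miR-133 column, 3 of the 96 were higher by 2-fold or more with Snai1, against 1.4% of all probes, and 0 were lower, against 3.48%. Against the GMT/miR-133 column that matches the day 7 scanner file, a setting added after the data were seen, 0 were higher, against 0.954% of all probes, and 1 was lower, M200009663, against 2.86%. The direction of these few changes differed with the array set against Snai1. The rule held the 96 within 2-fold of MEF in both first-round columns. It set no such limit on the Snai1 array or the second day 7 array. In the table's first day 7 GMT/miR-133 column 64 of the 96 were at the floor and could not read lower with Snai1. Nothing about Snai1 is therefore read from these counts. The 3 higher than the table's day 7 column, named after their values were seen, were M400000535, at 78.6 with Snai1 against 38.1 in that column, M200002952, at 53.1 against 26.5, and M300004973, at 72.5 against 36.0.

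The 3 probes lower than on the second day 7 array were named after their values were seen. M400010990 read 25 on the Snai1 array and 110 on the second day 7 array, against 1669 in heart and 25 in MEF. Its first-round values were 32.5, 33.2 and 43.8 with GMT/miR-133 and 25, 29.0 and 35.0 with GMT alone, so the second day 7 array was the highest of the 8 iCM arrays. M200003367 read 32.3 on the Snai1 array and 71.2 on the second day 7 array, against 475 in heart and 25 in MEF, and was at 25 on all 6 first-round arrays. M400006369 read 25 on the Snai1 array and 51.7 on the second day 7 array, against 270 in heart and 25 in MEF.

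GMT/miR-133 was compared with GMT over the 3 day pairs with limma on scanner intensities, fitted to the 19932 probes detected on at least 3 of the 6 arrays. Of the 96 probes, 87 were tested and 9 were not. The rule held each of these 6 arrays within 2-fold of MEF, which bounds any difference between arms or days in the 96, so the counts below are set beside those of the chip as a description and nothing is read from them. With days as the only replicates, the p-values reflect how much the difference varied from day to day on these arrays. After Benjamini-Hochberg adjustment over all tested probes 0 of the 87 were called, against 0.0% of all tested, and the smallest adjusted p of the 87 was 0.297. Without adjustment 16 (18.4%) had a p under 0.05, against 9.63% of all tested, and all 16 were higher with miR-133. Among all tested probes with an unadjusted p under 0.05, 49.2% were higher.

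The difference had a median of 0.03 (log2) over the 87, against 0.00313 over all tested, with a range of −0.16 to 0.45, and 60 (69.0%) were above 0, against 51.9% of all tested. By day, the median over the 96 was 0.027 ± 0.014 (SD, n = 3 days). Of all 96, 27 (28.1%) had the GMT/miR-133 array above its GMT array at each of the 3 days, against 14.3% of all probes, and 9 (9.38%) were lower at all 3, against 14.3%. The share higher was 52.2% among switched-on probes and 62.7% among mixed ones.

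The largest estimates were those of M200002625, at 0.45 ± 0.10 (log2, SE, 3 pairs; limma adjusted p = 0.358), and M200003096, at 0.44 ± 0.10 (adjusted p = 0.363). M200002625 ran from 0.29 to 0.73 over the 3 pairs and M200003096 from 0.28 to 0.72. Both were higher with miR-133 in every pair. The lowest were M400010807, at −0.16 ± 0.06 (adjusted p = 0.542), and M300003953, at −0.10 ± 0.05 (adjusted p = 0.580), and neither passed the test.

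Day 18 was compared with the mean of days 3 and 7, both arms together, in the same fit, and the bound set by the rule holds here too. Called were 6 of 87 probes, 5 higher and 1 lower, against 8.62% of all tested. An unadjusted p under 0.05 was reached by 24 (27.6%), against 27.9% of all tested, and the median was 0.00 (log2). With the local background, or on the authors' table, 0 of the 6 calls were kept. The days lie in different scan sessions. Within the session that also held MEF and heart, day 18 minus day 3 by the scanner files called 0 of 87, against 0.487% of all tested, with 20 (23.0%) at an unadjusted p under 0.05 against 17.6%.

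M400013972 had the largest estimate and was at 25 on all 9 arrays other than heart, where it read 363. As given in the table, with no floor, it was 2.93, 4.77 and 19.9 with GMT/miR-133 at days 3, 7 and 18, 4.66, 5.53 and 22.7 with GMT, 4.57 on the Snai1 array and 5.74 on the second day 7 array, against 7.31 in MEF. Both day 18 arrays were the highest of the iCM arrays, and the difference was 0.58 ± 0.05 (log2, SE; limma adjusted p = 0.013). Within the 1 session it was 0.55, with a limma adjusted p of 0.052.

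The other 5 called probes were named after their values were seen. M200001838, whose table values are given above, differed by 0.52 ± 0.06 (adjusted p = 0.020). M400006369 read 26.8, 35.5 and 46.3 with GMT/miR-133 at days 3, 7 and 18 and 25, 25 and 39.0 with GMT, and differed by 0.39 ± 0.06 (adjusted p = 0.030), but by −0.090 with the local background. M300004973 read 37.5, 36.0 and 51.3 with GMT/miR-133 and 38.1, 35.1 and 57.6 with GMT, against 347 in heart and 33.2 in MEF, and differed by 0.37 ± 0.06 (adjusted p = 0.041). In each of the 3, both day 18 arrays were above the earlier arrays of their arm.

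M300010644 read 25, 25 and 28.1 with GMT/miR-133 and 25 on all 3 GMT arrays, against 504 in heart and 25 in MEF, and differed by 0.34 ± 0.06 (adjusted p = 0.045), but by −0.022 with the local background. M300017362 was lower at day 18, with a difference of −0.40 ± 0.07 (limma adjusted p = 0.048). It read 44.8, 31.0 and 25 with GMT/miR-133 and 25 on all 3 GMT arrays, against 1137 in heart and 25 in MEF. With values under 25 set to 25 the difference shows with miR-133 alone, because the GMT arrays are at the floor. As given, the GMT arrays read 23.0, 23.7 and 10.4 at days 3, 7 and 18. By scanner values the difference was −0.416 with GMT/miR-133 and −0.378 with GMT. M200009663 and M400003555, at 0.55 and −0.44, did not pass the test, with limma adjusted p of 0.060 and 0.056. M200009663 read 60.1, 34.3 and 74.3 with GMT/miR-133 at days 3, 7 and 18, 37.4, 42.5 and 70.2 with GMT, 25 on the Snai1 array and 36.9 on the second day 7 array, against 444 in heart and 54.8 in MEF. Its iCM arrays lay on both sides of MEF.

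The floor of 25 decides membership for many probes, and 85 of the 96 have a value on MEF and all 6 first-round arrays as given. Without the floor 48 of the 85 stayed within 2-fold of MEF on all 6. In 8 all 6 first-round arrays were at least 2-fold above MEF, and in 1 all 6 were at least 2-fold below. Counting these, 29 probes had 1 or more arrays at least 2-fold above MEF, and 9 had 1 or more at least 2-fold below. Over the chip, 797 of the 19034 probes given on MEF and all 8 iCM arrays were at least 2-fold above MEF on all 6. The other counts have no chip share beside them, so nothing about the set is read from 29 against 9. The view without a floor was added after the data were seen, and it chose the 8.

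The 8 had MEF values of 0.762 to 13.7, first-round iCM values of 2.32 to 46.3 and heart values of 204 to 2224. Their median iCM to MEF ratio ran from 2.50 to 26.3. In 6 of the 8 the MEF value lay under the 95th percentile of spots without a probe on that array, 2.77 on the table's scale, so their ratio has no sound denominator. On the later 2 arrays, which did not choose them, 8 of 8 were at least 2-fold above MEF on both, against 6.36% of the 19034 probes given on MEF and all 8 iCM arrays. Among the 797 of those probes at least 2-fold above MEF on all 6 first-round arrays, 72.1% were, and all of these comparisons use the same MEF array.

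M300003329 had the largest ratio. It read 24.4, 43.0 and 22.8 with GMT/miR-133 at days 3, 7 and 18, 16.1, 37.5 and 22.9 with GMT, 8.43 on the Snai1 array and 36.1 on the second day 7 array, against 444 in heart and 0.898 in MEF. All 8 iCM arrays were above MEF and far below heart. Set against 2.77 in place of its MEF value, the lowest first-round array was at least 5.82-fold higher. By the same measure M400006369 was at 7.81 and M200010116 at 4.58. However, M400001400 was at 1.62, M200005715 at 0.857 and M200007785 at 0.837, so these were not 2-fold above that limit on every array. The single probe below MEF, M300003953, read 5.86, 3.13 and 4.12 with GMT/miR-133, 8.49, 5.29 and 5.04 with GMT, 23.1 on the Snai1 array and 9.03 on the second day 7 array, against 206 in heart and 19.6 in MEF. Its 6 first-round arrays were below MEF and the Snai1 array was not.

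The heart spots themselves were also examined. All 96 were brighter than their surround, as were all 67 switched-on probes and 2912 of the 2932 probes at or above the dimmest member in heart. The median ratio was 2.33 for the 96, against 2.08 for switched-on probes and 1.98 for the 2932. A neighbouring spot over 10000 was found for 0 of the 96, against 40 of those 2932, and a brighter neighbour for 38 (39.6%), against 1094 (37.3%). Members lay in 23 of the 24 printed blocks, and 1 block held 11 of them, including 4 of the 5 probes over 10000 in heart. Whether the position plays a part in these values was not tested. By ID series, 47.9% of the 96 were M200, 22.9% M300 and 29.2% M400. The shares were 46.3%, 23.9% and 29.9% among switched-on probes. They were 47.4%, 24.8% and 27.8% among all heart-high probes, which include the 96. All probes of the chip had 34.2%, 29.0% and 36.8%.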

How the data were processed

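Each of the 10 samples had 1 array, labelled with Cy5 only. Per the file headers, the deposited scanner files give spot intensity and surround intensity with no normalization. The authors' value table holds intensity on a linear scale with a median of about 25.0 per array, and leaves some dim probes empty. Its exact scaling and the rule for empty values are not given in the sources used here, and direction does not arise with 1 colour. The table chose the members and gave the values printed. For limma 3.58.1 (R 4.3.3), scanner intensities were corrected with normexp fitted to each array's blank spots (offset 50) and brought to a common distribution by quantile normalization of all 10, then put on the log2 scale. A probe was detected when it exceeded the 95th percentile of blank spots, and needed 3 of 6 arrays. The model's terms were arm and day, which left 2 residual degrees of freedom, with Benjamini-Hochberg adjustment at 0.05, and was tested on simulated data. Pairing of arms is by day, which the labels give.

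The members, the lists and the blank-spot background were chosen with earlier results of these data known. Named probes are the 2 extremes of heart over MEF, of heart level (both ends), of the mean rise on the later arrays and of each contrast, plus those just inside each limit. Others are named as chosen after their values were seen. The 16 gene lists were not used, because the reference gene table holds 0 of the probe IDs. Alternatives were other floors, limits, backgrounds, normalizations and left-out arrays. The number of arrays limits the precision.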

Additional observations from a re-analysis of the deposited data

How the results depend on the processing

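The count of 96 was 248 with heart at least 4 times MEF, 46 with at least 16 times, 62 with scanner values and local background (47 shared with the 96) and 48 with no floor, a setting chosen after seeing the data. It was 71 (58 shared) at a floor of 50, 139 (77 shared) at a floor of 10, 97 (65 shared) with median-scaled scanner values, and 96 to 101 without each first-round array in turn. The median miR-133 difference (log2) was 0.0073 with local background, 0.051 with no subtraction, 0 with the authors' table and 0.063 with the second day 7 array, and 0.031 to 0.039 without each day pair; with no replicate block for day it was 0.031. The called count was 0 in each of these. The median day 18 difference was −0.022 with local background, 0.014 with no subtraction, 0.0056 with median scaling and 0.030 against day 7 alone. The 6 called probes became 0 with local background, with the authors' table and against day 3 alone, 18 with no subtraction and 13 against day 7 alone. With local background M200009663 was at −0.021, M300010644 at −0.022 and M400006369 at −0.090, opposite in sign. Probes at least 2-fold above MEF on the Snai1 array numbered 10 at a floor of 10, 0 at a floor of 50 and 1 with scanner values, and on the second day 7 array 21 and 2 at these floors. With scanner values 1 probe was at least 2-fold lower with Snai1 than on the second day 7 array, against the table's first day 7 column 3 were higher and 0 lower, and against the column that matches the day 7 scanner file 0 were higher and 1 lower. The causes were not tested. Dim spots limit every ratio here, since most members were not read above 25 outside heart.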
